A study of Mus musculus with 5 samples.

Results

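The 10 genes of haem breakdown and iron handling followed here were measured across 5 Visium sections of neonatal mouse heart. They were taken by symbol from the 5 expression tables: Hmox1, Hmox2, Blvra, Blvrb, Fth1, Ftl1, Slc40a1, Tfrc, Cp and Hpx. All 10 were among the 13711 genes listed in every table, and 9 of the 10 were among the 12933 genes that passed the filter on low values and were tested. Hpx did not pass. Visium is a spatial assay in which polyadenylated RNA from a tissue section is captured on an array of spots with known barcodes, so that a spot reads a mixture of the cells above it, often of different types.

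The hearts came from wild-type C57BL/6 mice operated on postnatal day 1. Myocardial infarction (MI) was made by tying off the left anterior descending coronary artery, and sham hearts were operated on without ligation. Sections 10 µm thick were cut 200 µm below the level of the suture in both kinds of heart, and hearts were collected 3 or 7 days after surgery. Each group was 1 section, except that MI at day 7 had 2 (replicates 1 and 2). Single sections carry no replicate error, and the day 3 ratios were not tested on their own.

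The sections held 376 to 960 spots and 11396022 to 37492530 raw UMIs, with a median of 20842.5 to 53940 UMIs per spot. Raw counts were given for the sham day 3 section, whereas the other 4 held counts that the authors had corrected for depth, so this section differs from the rest in processing as well as in group. Xist was listed in the sham day 3 section and in MI day 7 replicate 1, and Ddx3y in the other 3, so the animals were not all of 1 sex. All 10 macrophage markers examined, Lyz2, Csf1r and C1qa among them, were higher in each of the 3 MI sections than in both sham sections. Their summed level was 137 and 147 CPM in the day 3 and day 7 sham sections (CPM being the values of a spot scaled to a total of 1000000, averaged over spots). It was 1066 CPM in the MI day 3 section, and 220 and 321 CPM in MI day 7 replicates 1 and 2. The mean of the authors' Macrophage score, an estimate of the cell type's share of a spot, had the opposite order, at 5.55% and 6.91% in the day 3 and day 7 sham sections against 5.06%, 3.97% and 1.57% in the MI sections, so the score and the markers disagree on the order of MI and sham. The defining cardiomyocyte markers were abundant in every section, at 32211 to 39046 CPM in sum. Sections shared 3 to 449 spot barcodes pairwise, which are positions of the array and not shared cells.

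Haem oxygenase opens the haem ring and frees iron, carbon monoxide and biliverdin, which biliverdin reductase then turns into bilirubin. The freed iron is stored in ferritin shells of heavy and light chains, or leaves the cell through ferroportin (Slc40a1), the known cellular iron exporter, with oxidation by ceruloplasmin (Cp). Cells take iron up with transferrin receptor 1 (Tfrc), and plasma hemopexin (Hpx) binds free haem for clearance. Macrophages that engulf red cells are known for inducible haem oxygenase (Hmox1), ferritin and ferroportin, while cardiomyocytes take up much iron for mitochondrial haem and iron-sulphur proteins.

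Several of these mRNAs carry the iron-responsive element, a hairpin bound by the iron regulatory proteins when iron is scarce. In the 5′ UTR this binding blocks translation without necessarily changing the mRNA, and in the 3′ UTR of Tfrc it protects the mRNA from decay. The elements are shown because they mark which of the mRNA levels given here are known to be under control of stability (Tfrc) and which under control of translation (Fth1, Ftl1 and Slc40a1). They were found in the GENCODE M21 transcripts (GRCm38) as a bulged C, 5 base pairs, a CAGTGN loop whose N is A, C or T, and at least 3 pairs below the bulge. Capitals mark the bulged C and the loop, and each is written 5′ to 3′ on the strand of its gene.
Fth1, 5′ UTR, chr19:9982735-9982757, plus strand: ctgCttcaaCAGTGCttgaacgg
Ftl1, 5′ UTR, chr7:45459782-45459804, minus strand: ttgCttcaaCAGTGTttgaacgg
Slc40a1, 5′ UTR, chr1:45925466-45925492, minus strand: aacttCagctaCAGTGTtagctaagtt
Tfrc, 3′ UTR, chr16:32631219-32631247, plus strand: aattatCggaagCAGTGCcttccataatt
Tfrc, 3′ UTR, chr16:32631598-32631626, plus strand: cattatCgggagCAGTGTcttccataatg
Tfrc, 3′ UTR, chr16:32631664-32631690, plus strand: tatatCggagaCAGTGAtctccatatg
Tfrc, 3′ UTR, chr16:32631710-32631738, plus strand: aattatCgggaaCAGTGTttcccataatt

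Of 21877 protein-coding genes, 6 (0.0274%) held this hairpin in a 5′ UTR and 6 (0.0274%) in a 3′ UTR. In a coding sequence 7 (0.032%) held it. The ferritin copy Ftl1-ps1 held the Ftl1 element letter for letter, and reads of ferritin genes and their copies can be exchanged in counting. Ftl1-ps1 was listed at 10.2 to 31.4 CPM, highest in the MI day 3 section like Ftl1. The members Hmox1, Hmox2, Blvra, Blvrb, Cp and Hpx had no match, which says only that these letters were not found in their transcripts.

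Hmox1, the inducible haem oxygenase (chr8:75093621-75100589), was the 1 tested member whose MI and sham sections did not overlap. Its level was 11.3 CPM in sham at day 3, 27.7 CPM in the MI day 3 section and 7.23 CPM in the sham day 7 section. MI day 7 replicates 1 and 2 had 12.3 and 13.3 CPM. All 3 MI sections lay above both sham sections, and the MI day 3 section was highest. The MI mean was 17.8 ± 8.60 CPM (SD, n = 3) and the sham mean 9.24 ± 2.85 CPM (SD, n = 2). Within a day, Hmox1 was 2.46-fold higher in MI than in sham at day 3 and 1.77-fold higher at day 7. Of the 9 members tested, 1 had every MI section above both sham sections and 0 had every MI section below, against 6.84% and 9.6% of all genes tested. A count of 1 in 9 is near these shares and is not read as a result about the members.

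The Hmox1 level of the sham day 3 section, whose counts were raw, rested on 130 UMIs, and the exact Poisson 95% interval ran from 109 to 154 (counting error only). With day as a covariate, the MI minus sham difference of Hmox1 on the log2(CPM + 1) scale was 0.95 (SE 0.16), and the adjusted p from limma across all genes tested was 0.366. The unadjusted p was 0.000546. Hmox1 therefore did not pass the threshold of 0.05, which 0.00773% of all genes passed in this fit. Over 14 alternatives its adjusted p ran from 0.00887 to 0.538. It passed in 2 of them, in which more of all genes passed than in the main fit. With sex as a covariate the log2 difference was 0.92 (adjusted p = 0.0135 by limma), and 277 of the 12933 genes tested passed. The other was the fit without the sham day 7 section, where the difference was 1.23. The latter takes its difference from the day 3 pair. Its residual spread is that of the 2 MI day 7 sections, which limma drew toward a trend over all genes. At day 7 alone the difference was 0.75 (SE 0.22). The residual spread of that fit is also that of the 2 MI day 7 sections, with 1 residual and 16.5 prior degrees of freedom. Its SE therefore rests mostly on the trend over all genes and not on the 2 Hmox1 values.

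**Figure D1:**
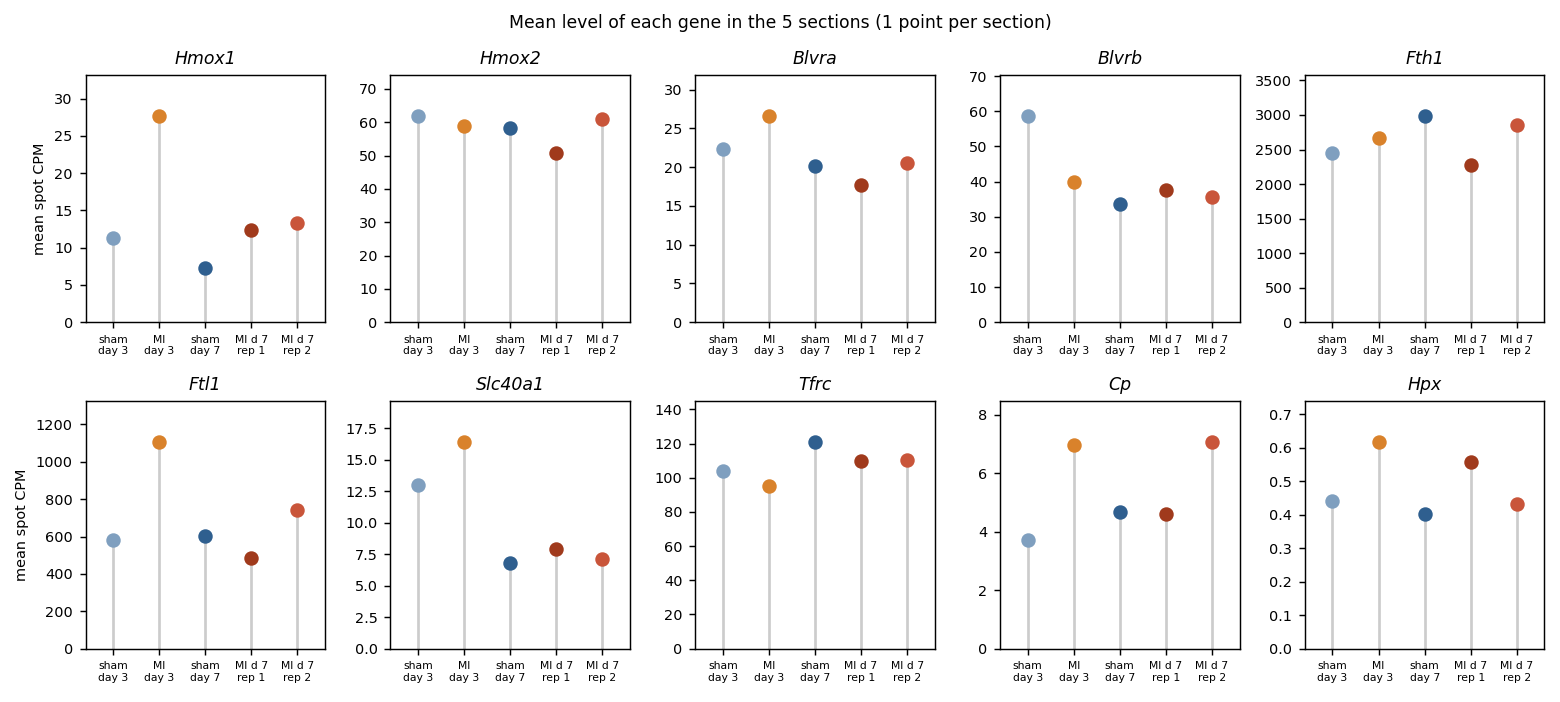
Level of each of the 10 genes in the 5 sections, as mean CPM over spots on linear axes that start at 0, with 1 point per section (sham or MI, day 3 or 7). The Hmox1 points of the 3 MI sections lie above those of both sham sections, the Ftl1 point of the MI day 3 section stands at 1106 CPM, and Hpx is below 1 CPM in every section.

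Hmox2, the constitutive haem oxygenase, gave no such separation. Its level was 61.9 and 58.8 CPM in the day 3 sham and MI sections, 58.2 CPM in the sham day 7 section, and 50.7 and 60.9 CPM in MI day 7 replicates 1 and 2. The groups overlapped, and the MI minus sham difference was -0.07 on the log2 scale (SE 0.13). The ratio of Hmox1 to Hmox2 CPM was 0.182 and 0.471 in the day 3 sham and MI sections, and 0.124, 0.244 and 0.219 in the sham section and both MI sections of day 7, so it too was higher in every MI section.

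The biliverdin reductases differed from each other. Blvra, the reductase of the biliverdin made by haem oxygenase, ranged from 17.8 CPM in MI day 7 replicate 1 to 26.6 CPM in the MI day 3 section, with overlapping groups and a difference of 0.06 (SE 0.14). Blvrb, a flavin and biliverdin reductase abundant in red cells, had 58.7 CPM in sham and 40.0 CPM in MI at day 3. At day 7 it had 33.7 CPM in sham and 37.5 and 35.6 CPM in the MI replicates. The sham day 3 section, the one with raw counts, was the highest for Blvrb and the other 4 lay close together. Across days the difference was -0.17 (SE 0.17). It was 0.11 without either day 3 section and -0.54 without the sham day 7 section.

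Of the ferritin chains, Fth1, the ferroxidase subunit, stayed within 2281 to 2988 CPM with overlapping groups (difference -0.08, SE 0.18). Ftl1, the light chain, had 579 CPM in sham and 1106 CPM in MI at day 3. At day 7 it had 602 CPM in sham and 485 and 742 CPM in MI replicates 1 and 2, which lay on either side of the sham section. The ratio of Ftl1 to Fth1 was 0.416 in the MI day 3 section and 0.201 to 0.260 in the other 4. The Ftl1 difference was 0.40 across days (SE 0.26, adjusted p = 0.764 by limma). It was -0.0040 without either day 3 section and 0.93 without the sham day 7 section, so it rested on the day 3 pair.

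Slc40a1, the iron exporter, had 13.0 and 16.4 CPM in the day 3 sham and MI sections. At day 7 its level was 6.82 CPM in sham and 7.90 and 7.11 CPM in the MI replicates. The values fell into the 2 days and not into the operations, with a MI minus sham difference of 0.20 on the log2 scale. Tfrc, the importer, had 104 and 95.2 CPM at day 3 in sham and MI, and 121, 110 and 110 CPM at day 7 in the sham section and MI replicates 1 and 2. Within each day the sham section was the higher one, and the MI minus sham difference across days was -0.13 on the log2 scale (SE 0.11, adjusted p = 0.822 by limma). The 2 groups overlapped.

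Cp and Hpx belong to the plasma side of iron and haem handling and are made mainly by the liver. Cp had 3.73 and 6.95 CPM in the day 3 sham and MI sections. At day 7 it had 4.68 CPM in sham and 4.60 and 7.06 CPM in the MI replicates, which bracket the sham value. The difference was 0.46 (SE 0.22, adjusted p = 0.678), and it was 0.24 without either day 3 section and 0.75 without the sham day 7 section. Hpx was at 0.401 to 0.617 CPM, on summed values of 5 to 21 per section, and no difference was detectable at this depth. The hepatocyte marker list was likewise near 0, with 1 of 4 markers in the shared set at 0.362 to 1.04 CPM.

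None of the 9 tested members passed the threshold for MI against sham, across days or at day 7, where 0.232% of all genes passed in limma. At an unadjusted p under 0.05, 1 of the 9 members passed in each of these comparisons, Hmox1, against 8.1% of all genes across days and 4.11% at day 7. Across days 5 members had differences above 0 and 4 below, with a median of 0.06 against -0.01 over all genes tested. At day 3 the log2 ratio of MI to sham was 1.23 for Hmox1, 0.93 for Ftl1 and 0.75 for Cp. Slc40a1 followed at 0.32, Blvra at 0.24 and Fth1 at 0.12, while Hmox2, Tfrc and Blvrb stood at -0.07, -0.13 and -0.54. Over all genes tested the median ratio was 0.03 with a 5th to 95th percentile of -0.46 to 0.81, and 3.51% reached 1. Of the members, Hmox1 and Ftl1 were above that range and Blvrb below it.

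**Figure D2:**
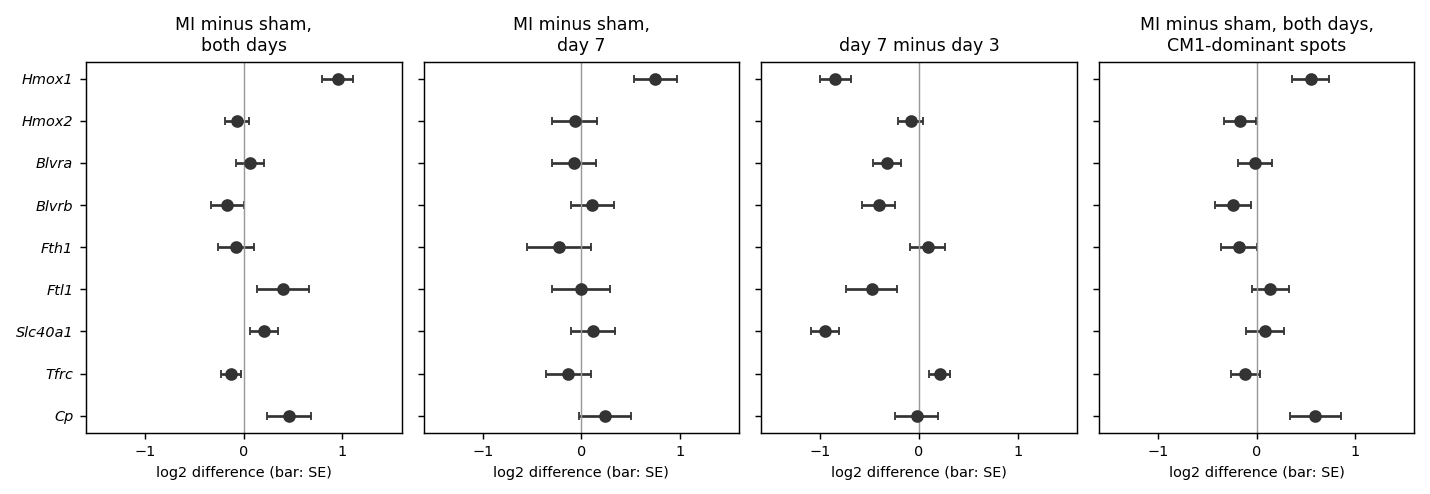
Difference of each tested member on the log2(CPM + 1) scale for MI minus sham across both days, MI minus sham at day 7, day 7 minus day 3, and MI minus sham in spots whose highest score is CM1, with bars of 1 standard error from limma. Hmox1 is the highest member for MI minus sham in the whole sections at 0.95 and 0.75, Cp and Hmox1 lead in the CM1-dominant spots, and Slc40a1 and Hmox1 are the lowest for day 7 minus day 3.

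Whether the MI difference itself changed between the days was tested as the MI effect at day 7 minus that at day 3, where 0.425% of all genes passed and 0 of the 9 members did. The change was -0.48 for Hmox1 (SE 0.33), -0.94 for Ftl1 (SE 0.46, adjusted p = 0.936 by limma), -0.51 for Cp and 0.65 for Blvrb (SE 0.33). The macrophage markers were all below 0 in this comparison (median -1.45) and 4 of the 10 passed, and their part in the members' values was not tested. At an unadjusted p under 0.05 none of the 9 passed either, against 5.44% of all genes. A difference between the days in how a member varied with MI is thus not shown.

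For postnatal time, with operation as a covariate, 0 of the 9 members passed in limma against 0.595% of all genes, and 3 (Hmox1, Blvrb and Slc40a1) had an unadjusted p under 0.05, against 25.1%. Slc40a1 was lower at day 7 by a log2 difference of -0.95 (SE 0.14, adjusted p = 0.0502 by limma). Hmox1 differed by -0.85 (SE 0.16, adjusted p = 0.0736), Ftl1 by -0.48, Blvrb by -0.41 and Blvra by -0.32. Blvrb was at -0.13 without either sham section and -0.78 without the MI day 3 section, and Blvra at -0.46 and -0.14. Ftl1 was at -0.88 and 0.056 in the same order, so its direction turned. Tfrc had the opposite sign, 0.21 (SE 0.11). All 10 macrophage markers were also below 0 in this comparison (median -0.75), as were all 3 neutrophil markers (median -1.59), though none of them passed. Their part in the members' values was not tested. All 3 day 7 sections lay below both day 3 sections for Blvra, Blvrb and Slc40a1, as for 38.9% of all genes, and above both for Tfrc, as for 5.79% of all genes.

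The median of all genes in this comparison was -0.18 and moved to -0.01 when sections were scaled by the median of ratios, under which Slc40a1 stood at -0.77 and Hmox1 at -0.67. The adjusted p of Slc40a1 ran from 0.00511 to 0.240 over 14 alternatives and was below 0.05 in 5 of them. That of Hmox1 ran from 0.00505 to 0.558 and was below 0.05 in 4 of them. Both members passed without the sham day 3 section and without the sham day 7 section, at -1.03 for Slc40a1 and -1.05 for Hmox1. In those fits more of all genes passed than in the main fit. Ftl1 passed in 1 alternative, with sex as a covariate, where 2280 of the 12933 genes tested passed in limma.

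The spots were then divided by the authors' cell type scores, which estimate the make-up of a spot from a single-nucleus reference. Each spot was put into the class with its highest score, and classes with at least 10 spots in all 5 sections were compared with spots dominated by CM1, the most common cardiomyocyte state. The scores were made from the same expression tables, so these levels are given as descriptions. Of the 9 members, 6 were higher in Macrophage-dominant than in CM1-dominant spots in all 5 sections, against 12.4% of all genes, and 1 was lower in all 5, against 4.41%. The 6 were Hmox1, Slc40a1, Ftl1, Cp, Blvra and Fth1, and the 1 was Tfrc.

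Hmox1 had the widest contrast. In CM1-dominant spots its level was 8.10, 13.2, 5.62, 8.24 and 8.15 CPM in the sham day 3, MI day 3, sham day 7, MI day 7 replicate 1 and MI day 7 replicate 2 sections. In Macrophage-dominant spots of the same sections it was 47.6, 157, 18.0, 91.9 and 69.4 CPM. The mean log2 contrast was 2.74 ± 0.79 (SD over 5 sections), with a range of 1.52 to 3.48. These classes were small, with 26, 20, 70, 21 and 13 spots, and the Hmox1 values in them summed to 27, 110, 29, 105 and 17. They made up 1.64% to 7.29% of the spots of a section and held 7.94% to 30.4% of its Hmox1, so most of the Hmox1 signal lay in spots of other dominant classes. In the MI sections the class level was 69.4 to 157 CPM and in the sham sections 18.0 to 47.6 CPM.

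The same spots differed in macrophage content. Summed macrophage markers in Macrophage-dominant spots were 432 and 455 CPM in the sham sections of days 3 and 7, 9705 CPM in the MI day 3 section, and 654 and 3891 CPM in MI day 7 replicates 1 and 2. In the CM1-dominant spots they were 82.5 and 96.0 CPM in the sham sections and 344, 165 and 123 CPM in the MI sections in the same order. Their part in the Hmox1 result was not tested. In such spots, as in whole sections, more cells of a type and more RNA per cell cannot be told apart.

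Slc40a1 in Macrophage-dominant spots was 39.2, 53.1, 14.7, 38.1 and 7.62 CPM, in the section order above, against 9.11, 9.95, 5.55, 5.58 and 6.11 CPM in CM1-dominant spots. The contrast was thus wide in 4 sections and narrow in MI day 7 replicate 2. Ftl1 was 959, 5148, 749, 915 and 2842 CPM in Macrophage-dominant spots and 469, 680, 516, 396 and 545 CPM in CM1-dominant spots. The 2 sections with the highest Ftl1 in Macrophage-dominant spots, MI day 3 and MI day 7 replicate 2, were those with the highest macrophage marker sums there.

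Fth1 had a narrower contrast, with a mean log2 contrast of 0.47 against 1.61 for Ftl1 and 1.68 for Slc40a1. Cp (1.53) and Blvra (0.64) were also higher in each section. Blvrb was higher in 4 of 5 sections with a mean of 0.43, and Hmox2 in 3 of 5 with a mean of -0.01. Tfrc went the other way. It was 67.9, 55.2, 117, 106 and 62.7 CPM in Macrophage-dominant spots against 109, 107, 132, 113 and 120 CPM in CM1-dominant spots, a mean log2 contrast of -0.56. With a highest score of at least 0.5, Blvra was higher and Tfrc lower in 3 of the 4 sections left, and among spots within the interquartile range of raw UMI counts Fth1 was higher in 2 of the 3 sections left.

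**Figure D3:**
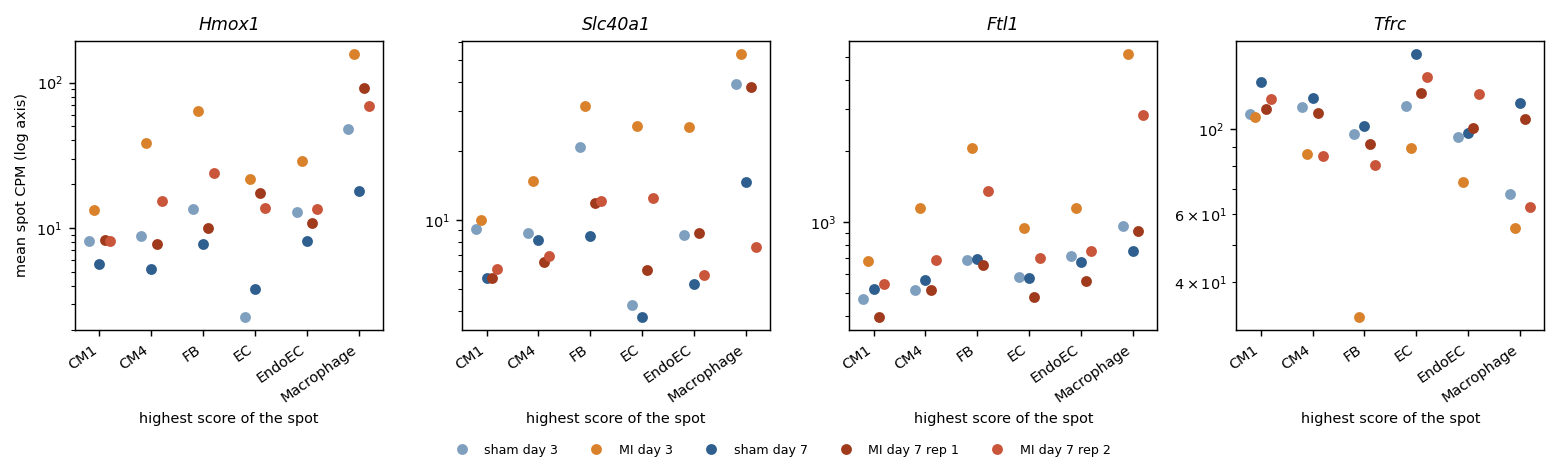
Mean CPM on a log axis of Hmox1, Slc40a1, Ftl1 and Tfrc in spots grouped by the class with the highest score (6 classes with at least 10 spots in all 5 sections), 1 point per section. Hmox1 is highest in Macrophage-dominant spots of every section, and Tfrc is lower there than in CM1-dominant spots of every section.

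Fibroblast-dominant (FB) spots were also higher for some of these members, in a class where many of all genes were higher. Hmox1 (mean log2 contrast to CM1-dominant spots 0.99), Ftl1 (0.92), Slc40a1 (1.01) and Cp (1.09) were higher in all 5 sections, Hmox1 in 4 of 5 under those 2 alternatives. Those are 4 of 9 members, against 31.4% of all genes. Tfrc was lower in all 5 (-0.62), against 5.39% of all genes, and in FB-dominant spots of the MI day 3 section it was 32.6 CPM, where Hmox1 was 63.2 CPM. The macrophage markers of FB-dominant spots summed to 169 and 179 CPM in the day 3 and day 7 sham sections, 1990 CPM in the MI day 3 section, and 323 and 649 CPM in MI day 7 replicates 1 and 2. Their part in the FB values was not tested.

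Endocardial (EndoEC) spots were higher in all 5 sections for Hmox1, Blvrb and Ftl1, 3 of 9 members against 17.0% of all genes. Endothelial (EC) spots were higher for Hmox2, Fth1 and Ftl1, against 14.0%. Hmox1 in EndoEC-dominant spots, and Hmox2 and Fth1 in EC-dominant spots, were higher in 4 of 5 sections under both of those alternatives. In spots dominated by CM4, another cardiomyocyte state, Blvra, Ftl1 and Cp were higher in all 5 sections, against 8.9% of all genes. Cp there was higher in 3 of 5 sections under either alternative, and its mean log2 contrast of 0.40 became -0.24 within the interquartile range of raw UMI counts, where Blvra was higher in 4 of 5. None of the 9 members was lower in all 5 sections in EndoEC-dominant, EC-dominant or CM4-dominant spots, against 4.81%, 1.55% and 2.19% of all genes. Of the 9 members, only Ftl1 stood above CM1-dominant spots in every section in each of these 5 classes. The share of all genes that did so was not counted.

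Epicardial (EPI) dominant spots reached 10 in 1 section, MI day 7 replicate 2, with 15 spots. There Cp was 45.5 CPM, Hmox1 61.5 CPM and Ftl1 2165 CPM, against 7.06, 13.3 and 742 CPM over the whole section. The macrophage markers of these spots summed to 3006 CPM, against 321 CPM over the whole section. Their part in these values was not tested. With 1 section there is no check on these values.

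To ask whether MI and sham differed among spots of like class, CM1-dominant spots were averaged per section and fitted in the same way. Hmox1 was higher by 0.55 on the log2 scale (SE 0.19, adjusted p = 0.383 by limma) and Cp by 0.60 (SE 0.26, adjusted p = 0.586). Cp was at 0.26 without either day 3 section and 1.05 without the sham day 7 section. None of the 9 members passed, against 0.251% of all genes, and 2 (Hmox1 and Cp) had an unadjusted p under 0.05, against 7.63%. The Hmox1 levels of CM1-dominant spots given above were higher in all 3 MI sections than in both sham sections, although MI day 7 replicate 2, at 8.15 CPM, was barely above the sham day 3 section, at 8.10 CPM.

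Haemoglobin mRNA marks young red cells and their precursors, and haemoglobin is a major source of haem. Its sum over 4 genes was 4401 and 11356 CPM in the day 3 sham and MI sections, and 6884, 8546 and 10723 CPM in the sham section and MI replicates 1 and 2 of day 7, so it was higher in every MI section than in both sham sections. Spot by spot the relation to Hmox1 was weak. Spearman's rho over spots, which share a library and neighbours within a section, was 0.028, -0.069, -0.0030, -0.040 and -0.045 for Hmox1 with haemoglobin, in 544, 376, 960, 693 and 791 spots. In 1 section it was above 0 and in 4 below, and the median over all genes was -0.02 to -0.01.

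When spots were ranked by haemoglobin, Hmox1 in the highest 25% of spots was 1.46 times that in the lowest 25% in the sham day 3 section and 0.420 times in the MI day 3 section. At day 7 the ratio was 0.976, 0.722 and 0.913 in the sham section and MI replicates 1 and 2. Haemoglobin-rich spots thus did not carry more Hmox1 in 4 of the 5 sections. Tfrc was the member with a positive rho in all 5 sections (0.057, 0.0049, 0.109, 0.061 and 0.082). Fth1 and Slc40a1 were below 0 in all 5, with the lowest value, -0.155, for Fth1 in the MI day 3 section. The median over all genes was also below 0 in each section. With edge spots left out, Tfrc was above 0 in 4 of 5 sections, Fth1 in 3 and Slc40a1 in 2. Fth1 was above 0 in 4 of 5 with haemoglobin and mitochondrial genes out of the total, and in 3 on the values as deposited.

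With the Macrophage score the order was different. Ftl1 had a rho of 0.302, 0.568, 0.176, 0.388 and 0.411 in the 5 sections, and 3 to 17 of all genes had a higher one. Hmox1 had 0.114, 0.360, 0.104, 0.151 and 0.178, with 119 to 613 genes higher. Slc40a1 had 0.164, 0.190, 0.097, 0.140 and 0.013. Tfrc was below 0 in each section, from -0.193 in the MI day 3 section to -0.023 in the sham day 7 section.

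Ranked by summed macrophage markers instead, the highest 25% of spots had 16.9 CPM of Hmox1 and the lowest 25% had 7.73 CPM in the sham day 3 section. In the MI day 3 section these were 73.5 and 7.40 CPM. At day 7 the highest and lowest 25% had 11.7 and 5.97 CPM in sham, 23.0 and 7.41 CPM in MI replicate 1, and 25.6 and 6.46 CPM in MI replicate 2. The levels of the lowest 25% were close together at 5.97 to 7.73 CPM, with both groups overlapping, while those of the highest 25% were higher in the 3 MI sections than in both sham sections.

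**Figure D4:**
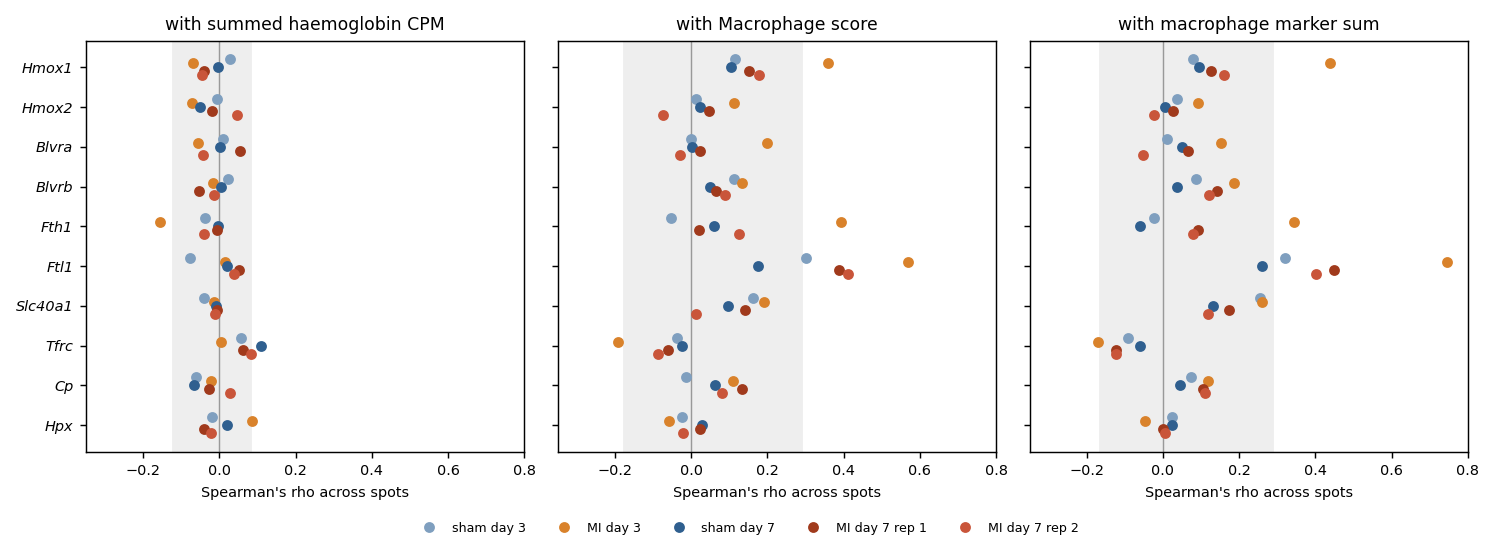
Spearman's rho across spots of each member with summed haemoglobin CPM, with the Macrophage score and with the summed macrophage markers, 1 point per section. The grey band runs from the lowest 5th to the highest 95th percentile of all tested genes over the 5 sections. Ftl1 and Hmox1 lie to the right of 0 for the score and the markers in every section, and Hmox1 lies around 0 for haemoglobin.

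Over the spots of all 5 sections, the genes whose pattern was most like Hmox1, by mean within-section rho over 12933 genes, were Ftl1 (0.21), Lyz2 (0.19), C1qc (0.17), Tyrobp (0.17) and Lgals3 (0.17). For Slc40a1 they were Ftl1 (0.15), Hmox1 (0.15), Apoe (0.14), C1qc (0.14) and C1qb (0.14). Ftl1 was thus in the lists of Hmox1 and Slc40a1, and Hmox1 in that of Slc40a1. Both lists also held C1q chains, which are abundant in macrophages.

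For Ftl1 they were Col3a1 (0.46), Sparc (0.46), Tmsb4x (0.45), Col1a2 (0.43) and Col1a1 (0.42), of which the collagens and Sparc encode matrix proteins. For Tfrc they were Fabp4 (0.17), Slc25a4 (0.17), Mb (0.17), Tnnt2 (0.16) and Atp5b (0.16), of which Mb and Tnnt2 are muscle genes and Slc25a4 and Atp5b are mitochondrial. Ftl1 and Tfrc had a mean rho of -0.12 with each other.

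Among the members, neighbouring spots resembled each other most for Ftl1 in the 3 MI sections and for Fth1 in both sham sections. Moran's I, which is near 0 for values scattered without order and rises as neighbours become alike, was 0.093, 0.678, 0.094, 0.292 and 0.416 for Ftl1 in the 5 sections. It was 0.136, 0.447, 0.119, 0.152 and 0.287 for Fth1 and 0.077, 0.242, 0.050, 0.150 and 0.046 for Hmox1. The 95th percentile over all genes was 0.062, 0.238, 0.055, 0.104 and 0.109. Ftl1 and Fth1 were above it in every section and Hmox1 in 3 of 5. Slc40a1 ran from 0.0031 to 0.0965.

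**Figure D5:**
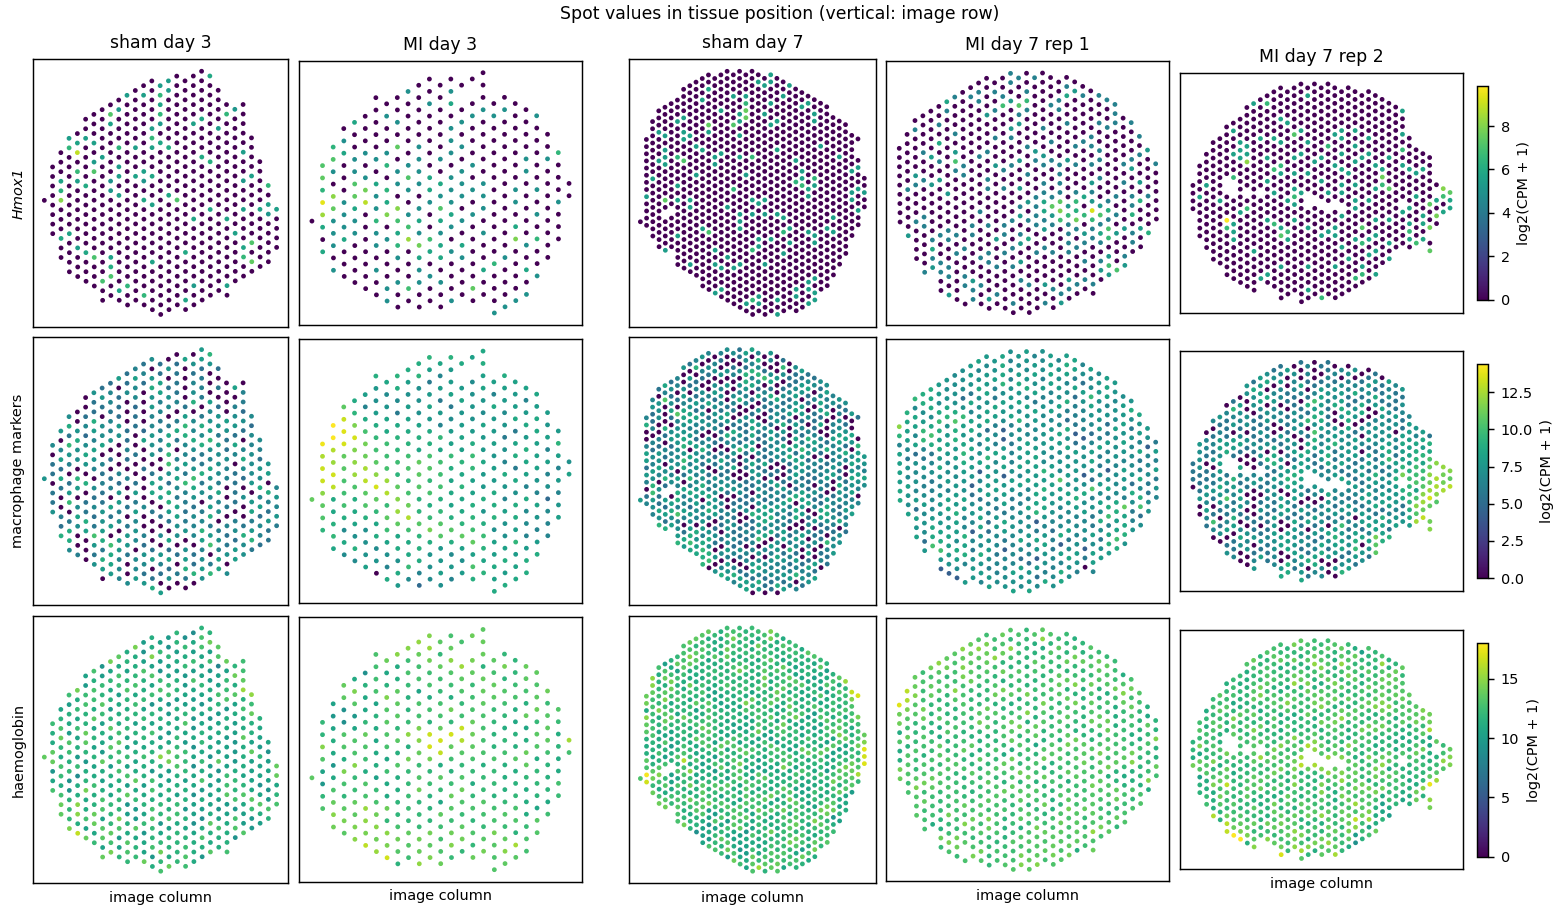
Spots of the 5 sections at their image positions, coloured by log2(CPM + 1) of Hmox1, of the summed macrophage markers and of summed haemoglobin. Spots with fewer than 2 neighbours are not drawn. In the MI day 3 section the brightest Hmox1 spots lie on the left with the brightest macrophage marker spots, and the brightest haemoglobin spots lie in the middle. In MI day 7 replicate 1 a group of bright Hmox1 spots on the right has no match in the marker or haemoglobin maps.

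Around these members, 51 further genes of haem and iron metabolism were listed, of which 47 were in the shared set and tested. None passed in limma for MI against sham across days or at day 7, where 10 and 2 of the 47 had an unadjusted p under 0.05, against the 8.1% and 4.11% of all genes given above. Their median difference across days was 0.11, and 33 lay above 0 and 14 below. In 11 of the 47 every MI section was above both sham sections, against 6.84% of all genes. In 1 every MI section was below both, against 9.6% of all genes. In CM1-dominant spots 1 passed, Hba-a2, an alpha-globin gene (1.20, SE 0.23, adjusted p = 0.0479 by limma), against 0.251% of all genes, and 12 of the 47 had an unadjusted p under 0.05, against 7.63%.

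Transferrin (Trf), the plasma iron carrier, had the widest difference of the list, 1.66 (SE 0.45, adjusted p = 0.435). Its level was 9.97 and 56.0 CPM in the day 3 sham and MI sections and 7.42, 10.1 and 29.6 CPM in the sham section and MI replicates of day 7, so that MI day 7 replicate 1 lay only just above the sham day 3 section. Steap4, a metalloreductase of iron uptake, stood at -0.68 (SE 0.25). Lrp1, a receptor for the hemopexin-haem complex, was at 47.8 and 94.9 CPM at day 3 in sham and MI, and 61.2, 69.6 and 99.9 CPM at day 7 (0.67, SE 0.20). Alas2, the erythroid enzyme that begins haem synthesis, was at 0.82 (SE 0.23) and Alad, the next enzyme, at 0.31 (SE 0.11), and both were higher in every MI section than in both sham sections. Hba-a2 (1.14) and Hbb-bs (0.90) led the haemoglobin genes.

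The remaining groups had smaller differences. For ferritin release and iron oxidation, the ferritin receptor Ncoa4 was at 0.15 and the ferroxidase Heph at -0.20. Hfe, which acts with transferrin receptor 1 in iron sensing, was at 0.30, and Bmp6, an inducer of hepcidin, at 0.14. Hfe had 8.25 and 14.9 CPM in the day 3 sham and MI sections. At day 7 it had 7.66 CPM in sham and 6.59 and 8.21 CPM in the MI replicates, which bracket the sham value. In mitochondrial iron handling Iscu, the scaffold of iron-sulphur cluster assembly, was at -0.24. Of the haem carriers, Pgrmc1 was at 0.15 and Hebp1 at -0.16. Bach1, a repressor of Hmox1, was at 0.18 and Keap1, an inhibitor of its activator Nfe2l2, at 0.16. Tfr2, Lcn2, Hamp and Tmprss6 were not analysed here.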

How the data were processed

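Visium libraries of 5 sections were made, aligned to GRCm38 (mm10) with Space Ranger and processed in Seurat with sctransform by the authors. The deposited sham day 3 table held raw UMI counts. The other 4 deposited tables held UMI counts corrected for depth by sctransform and rounded, so no count test was used although the design allowed for one. The deposited spot metadata gave raw UMI counts, cell type scores as a fraction and spot positions in pixels. Spots were scaled to CPM over the 13711 shared genes and averaged per section, and genes at 1 CPM or more in at least 2 sections were tested. Fits used limma 3.58.1 (R 4.3.3) on log2(mean CPM + 1), two-sided, with Benjamini-Hochberg adjustment over all genes tested and a threshold of 0.05. A log2 difference on this scale understates the change of low genes. Spots are not replicates. Nothing in the labels ties sections to separate litters, so p-values measure the spread between these sections. In limma the variance of each gene was also drawn toward a trend over all genes. The members and lists were chosen with earlier results of these data known. All members were named, with, per pathway group, the 2 genes of largest absolute log2 difference across days among those averaging at least 5 CPM, and, for 4 members, the 5 genes most alike across spots. The limma script and the calculation of Moran's I were tested on simulated data. Spots were neighbours within 1.25 times the median spacing. One gene that this rule names is not reported here.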

Additional observations from a re-analysis of the deposited data

Results flagged for a closer look

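For Blvrb the MI effect at day 7 minus that at day 3 was 0.65 on the log2 scale (SE 0.33), since the MI section was below the sham section at day 3 and both MI sections were above it at day 7. For Fth1 it was -0.34 (SE 0.50), with MI above sham at day 3 and both MI sections below sham at day 7. Neither difference passed the threshold in limma (adjusted p = 1.00 for Blvrb). The sham day 3 section, whose table alone held raw counts, enters both values, and its part in them was not tested.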

How the results depend on the processing

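Counting each member in each alternative fit, log2 differences kept their direction and side of the threshold 471 times, became significant 12 times and reversed 30 times. Scaling by the median of ratios gave 3 calls across days, 0 at day 7, 185 for day 7 against day 3, 0 for the change between days and 14 in CM1-dominant spots. It reversed Ftl1 at day 7 (0.029), Hmox2 (0.11) and Cp (0.14) for day 7 against day 3, Tfrc in the change between days (0.10) and Blvra in CM1-dominant spots (0.013). Leaving mitochondrial and haemoglobin genes out gave 0 calls at day 7, 213 for day 7 against day 3 and 0 for the change between days. It reversed Hmox2 (0.01) and Ftl1 (0.066) at day 7, Cp (0.049) for day 7 against day 3 and Tfrc (0.10) in the change between days. The 4 counts of 0 were limma's at an adjusted p, where 677, 668, 748 and 754 genes had an unadjusted p under 0.05.

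Summing the values of all spots gave 87 calls at day 7 and 158 for the change between days, and 0.043 for Cp at day 7 against day 3. A pseudocount of 10 gave 0 calls across days (1028 at an unadjusted p under 0.05 in limma) and 162 for the change between days, and a pseudocount of 0.1 gave 20. With sex as a covariate 277 genes passed across days, 2280 for day 7 against day 3 and, as an addition made after seeing the data, 453 in CM1-dominant spots, with 1 residual degree of freedom. A CM1 score of at least 0.5 gave 54. Leaving out spots under 5000 raw UMIs, also added after seeing the data, gave 16 calls at day 7 and 34 for the change between days, and 0.0017 for Tfrc in that change.

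Leaving out 1 section in turn gave 0 to 360 calls across days, 41 to 758 for day 7 against day 3 and 31 to 260 in CM1-dominant spots. The counts of 360 and 750 came without the sham day 7 section, 758 without the sham day 3 section, and 0 and 260 without MI day 7 replicate 2. Across days the range was -0.075 to 0.24 for Blvra, -0.54 to 0.11 for Blvrb, -0.23 to 0.12 for Fth1 and -0.0040 to 0.93 for Ftl1. For day 7 against day 3 it was -0.46 to -0.14 for Blvra, -0.78 to -0.13 for Blvrb, -0.059 to 0.28 for Fth1, -0.88 to 0.056 for Ftl1 and -0.24 to 0.27 for Cp. In CM1-dominant spots it was -0.082 to 0.058 for Blvra, -0.70 to 0.11 for Blvrb -0.15 to 0.53 for Ftl1 and 0.26 to 1.05 for Cp. The cause of these changes was not tested.

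At day 3 the Hmox1 ratio was 1.16 with the median of ratios, 1.13 without mitochondrial and haemoglobin genes and 0.83 with a pseudocount of 10. The mean rho of Hmox1 with haemoglobin was 0.019 when the haemoglobin of neighbouring spots was used. That of Fth1 was 0.0080 on the values as deposited and 0.052 with haemoglobin and mitochondrial genes out of the total. Moran's I of the members, and 177 of their levels by class, moved by less than 1 SD over sections. Within the interquartile range of raw UMI counts Cp against CM1-dominant spots reversed in CM4-dominant spots (-0.24), and Cp in FB-dominant (0.63) and Hmox2 in EndoEC-dominant spots (0.044) moved by more than 1 SD. With 1 section in 3 of the 4 groups, fits without a day 7 section for the day 7 comparison, and without any section for the change between days, had no residual degrees of freedom and were not made. No paired analysis was possible because the groups share 1 replicate number. Low members such as Hpx and Cp are limited by depth.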

Other observations

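The places where Hmox1 was highest differed between the MI sections. In each section the 20 spots with the highest Hmox1, averaged over a spot and its neighbours, were picked after the values were seen, so their Hmox1 excess is given by the choice and nothing was tested. In the MI day 3 section these spots had 183 CPM of Hmox1 against 18.9 CPM elsewhere, and their summed macrophage markers were 5903 CPM against 794 CPM. In MI day 7 replicate 2 the macrophage markers were 2069 CPM in such spots against 276 CPM elsewhere, and 5 of the 20 spots were EPI-dominant. In MI day 7 replicate 1 Hmox1 was 114 CPM against 9.33 CPM, a wider contrast than in the other MI sections, but the macrophage markers were 350 CPM against 216 CPM.

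Slc40a1 was 55.9 CPM in them against 14.2 CPM elsewhere in the MI day 3 section, 25.8 against 7.37 CPM in MI day 7 replicate 1 and 17.6 against 6.83 CPM in replicate 2. Ftl1 was 4.50, 1.61 and 2.71 times its level elsewhere in the same 3 sections, and Tfrc 0.494, 0.937 and 0.825 times. In the sham sections of days 3 and 7 Slc40a1 was 2.90 and 0.989 times its level elsewhere, Ftl1 1.17 and 1.35 times and Tfrc 0.716 and 1.05 times. Hmox2 (1.44, 1.13 and 0.591 times) and Blvra (1.85, 0.882 and 0.877 times) lay on both sides of 1 in the 3 MI sections. Haemoglobin was 0.640, 0.863 and 1.50 times its level elsewhere in the MI sections and 1.31 and 0.714 times in the sham sections, so the Hmox1-rich spots were not regularly rich in haemoglobin mRNA.

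In the MI day 3 section all 11 spots under 1000 raw UMIs were listed at exactly 1 for Hmox1, and in the other sections such spots were listed at 0. Its mean Hmox1 level was 27.7 CPM with them and 27.6 CPM without them.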
